A study of Mus musculus with 18 samples.

Results

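Homologous recombination repairs a broken chromosome by copying the missing stretch from an intact sister, and 9 mouse genes of this pathway were followed across the 6 groups of organ and state: Brca1, Bard1, Palb2, Brca2, Rad51ap1, Rad54l, Xrcc2, Blm and Eme1. They were taken by symbol, each matching 1 Ensembl row of the gene count table, so they were 9 of 38924 genes. All 9 passed the filter on low counts and were among the 16577 genes tested.

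Fibroblasts were isolated from the heart, kidney and tail of 10-week-old male Rosa mT/mG mice on a C57BL/6 background and grown for 10 days. Rosa mT/mG is a reporter that makes donor cells of every type carry the red fluorescent protein TdTomato, so the red label marks donor origin and not fibroblasts. Part of each preparation was soaked into gelatin foam and placed under the kidney capsule of 10- to 11-week-old syngeneic C57bl6/j mice, and 3 days later live TdTomato-positive, CD45-negative cells were sorted to give HFs (heart), KFs (kidney) and TFs (tail). The remaining cells were replated as the cultured controls HFc, KFc and TFc, and RNA sequencing was made of 3 libraries in each group, 18 in all. All donors carried the reporter, in culture and in the graft. How many donors or recipients stand behind each library is not given in the sources used here, and a p-value measures only the spread between these libraries.

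When both strands of DNA are cut, nucleases trim the ends to single strands, and a protein filament built on them searches for the matching sequence. Brca1 and Bard1 form a ubiquitin ligase that acts at the trimmed ends, Palb2 joins Brca1 to Brca2, and Brca2 helps to build the filament. Rad51ap1, Rad54l and Xrcc2 help to form, hold or use the paired strands. The helicase Blm and the nuclease complex of Mus81 and Eme1 then take apart the joined molecules. The sister chromatid that serves as template exists only after replication, and in dividing cells many genes of this pathway are transcribed more in S and G2 phase than in resting cells.

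The gene starts are shown because letters known from promoters of cell cycle genes can be read in them. In transplanted kidney fibroblasts 8 of the 9 members rose together, all but Bard1. RefSeq windows of 300 bases, from 250 before to 50 after the transcription start on GRCm38.p6, matched 8 of the 9 genes. Xrcc2 had no entry. A search on both strands used 4 spellings of the E2F letters (TTTCCCGC, TTTGGCGC, TTTCGCGC and TTTGCCGC), 2 spellings of the cell cycle homology region (TTTGAA and TTCGAA) and CCAAT. In the 5 windows below, written in the direction of transcription, capitals mark these letters. The windows of Rad51ap1, Rad54l and Palb2 are not shown, and of these letters they had CCAAT alone.

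Brca2: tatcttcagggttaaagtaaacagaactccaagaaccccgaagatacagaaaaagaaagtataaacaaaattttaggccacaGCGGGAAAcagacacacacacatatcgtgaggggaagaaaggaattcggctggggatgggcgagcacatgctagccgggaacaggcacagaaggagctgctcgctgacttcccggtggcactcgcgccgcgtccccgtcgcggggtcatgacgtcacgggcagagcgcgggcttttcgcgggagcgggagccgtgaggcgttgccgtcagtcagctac
Bard1: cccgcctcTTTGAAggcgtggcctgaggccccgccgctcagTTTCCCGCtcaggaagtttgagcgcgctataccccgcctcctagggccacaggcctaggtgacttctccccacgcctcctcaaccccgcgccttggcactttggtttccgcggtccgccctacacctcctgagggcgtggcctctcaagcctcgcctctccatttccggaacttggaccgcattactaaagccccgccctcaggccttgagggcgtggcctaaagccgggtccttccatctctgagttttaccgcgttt
Eme1: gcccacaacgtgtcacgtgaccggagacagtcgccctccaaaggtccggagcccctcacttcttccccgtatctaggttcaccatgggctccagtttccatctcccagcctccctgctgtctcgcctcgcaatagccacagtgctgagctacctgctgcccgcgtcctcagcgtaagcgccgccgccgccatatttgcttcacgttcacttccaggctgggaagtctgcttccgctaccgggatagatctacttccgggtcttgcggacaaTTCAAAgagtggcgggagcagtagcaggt
Brca1: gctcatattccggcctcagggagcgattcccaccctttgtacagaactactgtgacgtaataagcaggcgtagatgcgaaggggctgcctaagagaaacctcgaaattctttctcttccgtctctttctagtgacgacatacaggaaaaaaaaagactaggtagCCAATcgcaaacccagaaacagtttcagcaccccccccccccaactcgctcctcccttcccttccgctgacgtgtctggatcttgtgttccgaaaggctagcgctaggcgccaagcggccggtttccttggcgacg
Blm: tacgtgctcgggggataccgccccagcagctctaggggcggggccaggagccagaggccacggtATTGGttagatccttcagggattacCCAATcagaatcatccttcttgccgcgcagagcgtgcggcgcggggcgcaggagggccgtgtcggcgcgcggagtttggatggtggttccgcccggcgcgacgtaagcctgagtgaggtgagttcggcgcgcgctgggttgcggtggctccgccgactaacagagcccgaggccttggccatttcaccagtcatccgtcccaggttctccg

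The Brca2 window lies at chr5:150522371-150522670 on the plus strand, and its E2F letters start at position -168 from the start site. The other windows lie on the minus strand, Bard1 at chr1:71102923-71103222, Eme1 at chr11:94653694-94653993, Brca1 at chr11:101551906-101552205 and Blm at chr7:80534949-80535248. Positions are counted from the RefSeq start. For Bard1, Eme1 and Blm this start lies inside the gene span given below, which comes from another annotation. In Bard1 the E2F letters start at position -209 and the cell cycle homology letters at position -242. In Eme1 the cell cycle homology letters lie 21 bases past the start. CCAAT letters start at position -86 in Brca1, and at -186 and -161 in Blm. E2F letters were thus present in 2 of 8 members and in 2.28% of 32544 distinct windows of the same length over all genes. Cell cycle homology letters were present in 2 of 8 members and in 19.1% of all windows, and CCAAT in 5 of 8 and in 37.4%. Bard1, which had both E2F and cell cycle homology letters, is the member not counted as rising. Among the members counted as rising, E2F letters were found only in Brca2 and cell cycle homology letters only in Eme1. Guanine and cytosine made up 53.7% to 66.0% of the members' windows, with a median of 53.0% over all windows. These are matches of letters and were not tested for binding.

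Levels are given as CPM, the reads of a gene per 1000000 reads of its library, with library sizes scaled by the trimmed mean of M values. Total counts ran from 17927838 to 32245168 per library, and the members had between 19 and 953 counts in a library. One library went against its label. The library labelled KFs replicate 3 held 1490 CPM of Xist, the transcript of the inactive X chromosome of females, against at most 0.404 CPM in the other 17 libraries. Its Y-linked transcripts summed to 0.722 CPM, against 175 to 230 CPM elsewhere. The mean log2(CPM + 1) of 8 fibroblast markers was 7.84 in it and 10.25 and 9.79 in the other KFs libraries. The members' changes and the gene lists in KFs/KFc, and each count that it moved, are also given without it. Fibroblast markers, Col1a1 and Pdgfra among them, were present in every group, at levels that differed between cultured and transplanted libraries and are given with the other cell type markers.

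After 3 days under the kidney capsule, 8 of the 9 genes rose in kidney fibroblasts, and none rose or fell in heart or tail fibroblasts by the same rule. The 9 genes had a median log2 fold change of 1.41 in KFs/KFc, -0.53 in HFs/HFc and 0.42 in TFs/TFc. A change was called at an adjusted p under 0.05 in the quasi-likelihood test of edgeR (p-values adjusted by Benjamini and Hochberg's method across every gene tested), with an absolute log2 fold change of more than 1. By this rule 14.7% of all genes tested rose and 7.99% fell in KFs/KFc. In HFs/HFc 18.3% rose and 9.33% fell, and in TFs/TFc 11.0% rose and 5.53% fell. The medians over all genes were 0.09, 0.05 and 0.0 in the kidney, heart and tail comparisons. The study's own text names this pathway, together with the cell cycle, for genes raised only in KFs/KFc of these same libraries. The count of 8 is thus not independent evidence of the direction. Nor is the lack of calls in heart and tail fibroblasts independent evidence of a kidney-only response. Without the library labelled KFs replicate 3 the kidney count was again 8, with the same member short of the fold limit, and the median 1.57. The log2 fold changes were then 2.17 for Blm, 2.14 for Rad51ap1, 1.81 for Eme1, 1.71 for Brca1, 1.57 for Rad54l, 1.41 for Palb2, 1.33 for Brca2, 1.25 for Xrcc2 and 0.95 for Bard1. At an unadjusted p under 0.05 in edgeR, 3 members were lower in HFs/HFc and 2 higher in TFs/TFc, and DESeq2 called 0 in both. In such bulk libraries fewer cells of a type and less RNA per cell cannot be told apart.

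**Figure D1:**
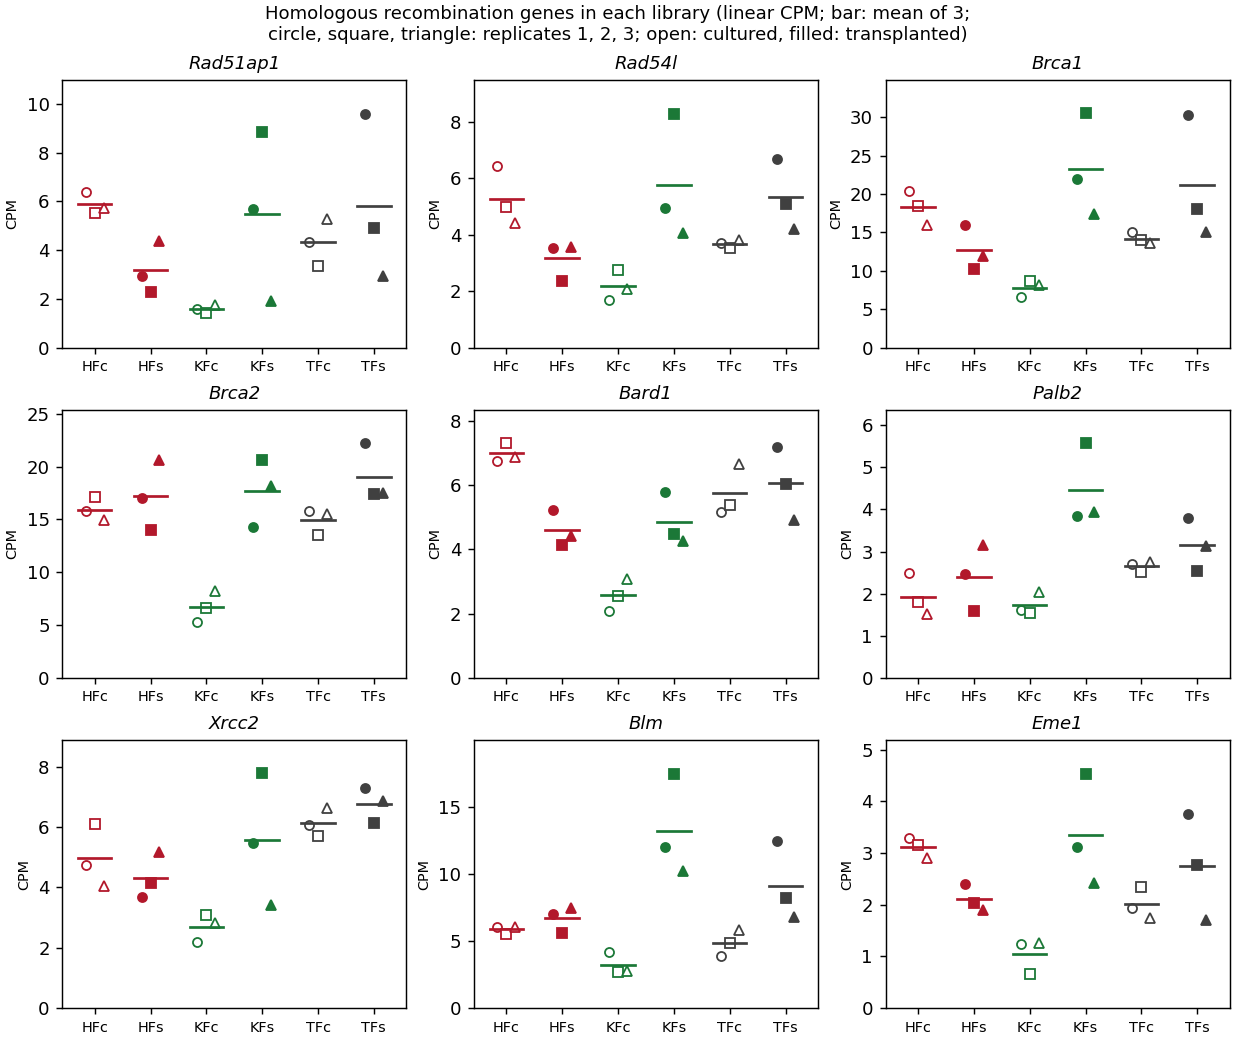
CPM of each of the 9 genes (vertical axis, linear from 0) in the 18 libraries, arranged by group. Open symbols are cultured and filled symbols transplanted libraries, circle, square and triangle are replicates 1, 2 and 3, and bars are means of 3. All 3 KFs libraries lie above all 3 KFc libraries for all 9 genes, and KFc has the lowest mean for all 9.

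Brca1 and Bard1, partners in 1 ubiquitin ligase, both stood higher in KFs than in KFc. Brca1 (ENSMUSG00000017146, chromosome 11, 101488764 to 101551955, minus strand, GRCm38) was at 6.56, 8.66 and 8.17 CPM in the KFc libraries and at 22, 30.5 and 17.4 CPM in the KFs libraries. The groups did not overlap, and Brca1 rose 2.99-fold (log2 fold change 1.58 ± 0.25 SE, adjusted p = 0.000107). In heart fibroblasts Brca1 was at 20.4, 18.5 and 16.0 CPM in HFc and at 16.0, 10.2 and 12 CPM in HFs. This log2 fold change of -0.53 had a 95% interval from -1.05 to -0.000384 and an adjusted p of 0.0814. In tail fibroblasts Brca1 was at 15.0, 14.0 and 13.6 CPM in TFc and at 30.3, 18.1 and 15.0 CPM in TFs, where the first library stood far above the others. The tail log2 fold change was 0.57 (adjusted p = 0.0795).

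Bard1 (ENSMUSG00000026196, chromosome 1, 71027498 to 71103146, minus strand) was at 2.09, 2.55 and 3.06 CPM in KFc and at 5.78, 4.46 and 4.25 CPM in KFs. The ranges were apart, and the log2 fold change was 0.91 ± 0.20 SE (adjusted p = 0.00137), which is under the fold limit, so Bard1 was the member not counted. In heart fibroblasts the 3 HFc libraries, at 6.74, 7.31 and 6.88 CPM, lay above the 3 HFs libraries, at 5.23, 4.14 and 4.40 CPM. Bard1 had the smallest adjusted p of the 9 in HFs/HFc, 0.0149, at a log2 fold change of -0.61, again under the fold limit. In tail fibroblasts it was at 5.16, 5.38 and 6.66 CPM in TFc and at 7.17, 6.04 and 4.92 CPM in TFs, and the ranges overlapped (log2 fold change 0.08, 95% interval -0.34 to 0.49).

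Palb2 and Brca2 act together in building the filament. Palb2 (ENSMUSG00000044702, chromosome 7, 122107262 to 122132985, minus strand) was at 1.60, 1.54 and 2.03 CPM in KFc and at 3.84, 5.58 and 3.93 CPM in KFs. It rose 2.58-fold there (log2 fold change 1.37 ± 0.28 SE, adjusted p = 0.000842). Its heart libraries overlapped, at 2.48, 1.79 and 1.52 CPM in HFc and 2.46, 1.59 and 3.15 CPM in HFs. Its tail libraries overlapped too, at 2.70, 2.51 and 2.76 CPM in TFc and 3.80, 2.54 and 3.14 CPM in TFs. Palb2 was among the 3 members with a positive log2 fold change in HFs/HFc, 0.31 with a 95% interval from -0.29 to 0.91.

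Brca2 (ENSMUSG00000041147, chromosome 5, 150522630 to 150570329, plus strand) was at 5.26, 6.63 and 8.24 CPM in KFc and at 14.3, 20.6 and 18.2 CPM in KFs. It rose 2.63-fold (log2 fold change 1.40 ± 0.18 SE, adjusted p = 1.74e-05), with the smallest standard error of the 9. Heart libraries had 15.8, 17.1 and 14.9 CPM in HFc and 17, 14.0 and 20.6 CPM in HFs, with a log2 fold change of 0.11 (95% interval -0.27 to 0.49). Tail libraries had 15.8, 13.5 and 15.5 CPM in TFc and 22.2, 17.4 and 17.5 CPM in TFs. The tail ranges were apart, but at a log2 fold change of 0.35 the adjusted p was 0.135. KFs thus reached the range of the heart and tail groups, while KFc lay below every other library of the series for this gene.

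Rad51ap1, Rad54l and Xrcc2 act while the strands are paired. Rad51ap1 (ENSMUSG00000030346, chromosome 6, 126923050 to 126939587, minus strand) had the largest standard error of the 9. It was at 1.60, 1.43 and 1.76 CPM in KFc and at 5.70, 8.85 and 1.92 CPM in KFs, the last being the library labelled KFs replicate 3. It rose 3.44-fold with that library (log2 fold change 1.78 ± 0.47 SE, adjusted p = 0.00570), and the log2 fold change without it was 2.14 (adjusted p = 0.000220). HFc held 6.38, 5.52 and 5.75 CPM against 2.95, 2.29 and 4.37 CPM in HFs, ranges that did not overlap, with a log2 fold change of -0.87 (95% interval -1.85 to 0.10). TFc held 4.33, 3.37 and 5.26 CPM and TFs 9.58, 4.91 and 2.93 CPM, so that the TFs libraries lay both above and below the TFc range.

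Rad54l (ENSMUSG00000028702, chromosome 4, 116094264 to 116123690, minus strand) encodes a motor protein that remodels the paired strands. It was at 1.68, 2.76 and 2.09 CPM in KFc and at 4.97, 8.30 and 4.05 CPM in KFs. It rose 2.65-fold (log2 fold change 1.41 ± 0.29 SE, adjusted p = 0.000845). In heart fibroblasts the order was turned, with 6.45, 4.98 and 4.42 CPM in HFc and 3.55, 2.38 and 3.57 CPM in HFs. This log2 fold change of -0.74 had an adjusted p of 0.0367 and was under the fold limit. TFc held 3.71, 3.53 and 3.81 CPM and TFs 6.69, 5.09 and 4.20 CPM, ranges that were apart with a log2 fold change of 0.53 (adjusted p = 0.151).

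Xrcc2 (ENSMUSG00000028933, chromosome 5, 25689812 to 25705825, minus strand) was at 2.2, 3.07 and 2.82 CPM in KFc and at 5.46, 7.79 and 3.41 CPM in KFs. Its log2 fold change of 1.04 ± 0.26 SE (adjusted p = 0.00359) was the rise nearest to the fold limit. It was 0.67 without KFs replicate 2 and 0.91 without KFc replicate 1, and no longer counted in either fit. Heart libraries overlapped, with 4.74, 6.09 and 4.03 CPM in HFc and 3.67, 4.14 and 5.16 CPM in HFs. Tail libraries overlapped as well, with 6.05, 5.69 and 6.62 CPM in TFc and 7.28, 6.13 and 6.87 CPM in TFs.

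Blm and Eme1 act at the end of the pathway. Blm (ENSMUSG00000030528, chromosome 7, 80454733 to 80535119, minus strand) had the largest rise of the 9 in KFs/KFc. It was at 4.18, 2.69 and 2.72 CPM in KFc and at 12, 17.4 and 10.2 CPM in KFs, a 4.14-fold rise (log2 fold change 2.05 ± 0.26 SE, adjusted p = 1.5e-05). Blm was also the member with the largest tail difference, with 3.86, 4.83 and 5.83 CPM in TFc and 12.4, 8.22 and 6.74 CPM in TFs. The ranges were apart, and the log2 fold change of 0.91 (adjusted p = 0.0113) was under the fold limit. Heart libraries overlapped, with 6.01, 5.52 and 6.04 CPM in HFc and 7.03, 5.60 and 7.44 CPM in HFs.

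Eme1 (ENSMUSG00000039055, chromosome 11, 94644996 to 94653964, minus strand) was at 1.23, 0.663 and 1.26 CPM in KFc, the lowest levels of any member, and at 3.11, 4.52 and 2.41 CPM in KFs. It rose 3.18-fold (log2 fold change 1.67 ± 0.33 SE, adjusted p = 0.000645). The 3 HFc libraries, at 3.28, 3.15 and 2.90 CPM, lay above the 3 HFs libraries, at 2.40, 2.03 and 1.90 CPM. That log2 fold change of -0.56 had a 95% interval from -1.24 to 0.12. TFc held 1.93, 2.35 and 1.75 CPM and TFs 3.75, 2.77 and 1.70 CPM, and the ranges overlapped.

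**Figure D2:**
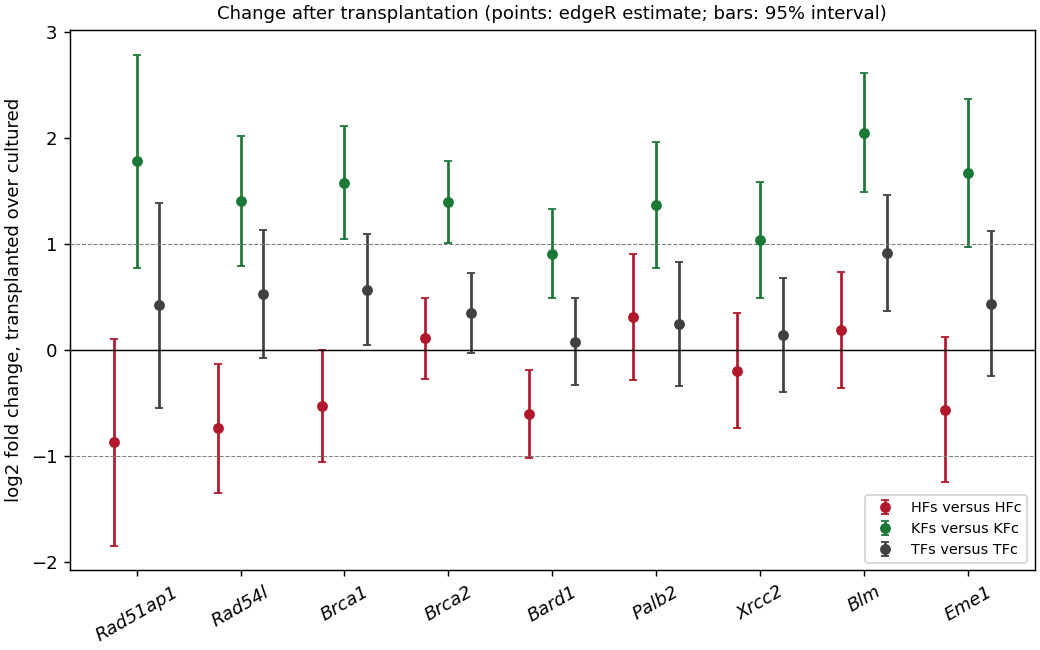
Log2 fold change of each gene, transplanted over cultured (vertical axis), in heart, kidney and tail fibroblasts. Points are edgeR estimates, bars 95% intervals, and dashed lines the fold limit of 1. The kidney estimates run from 0.91 for Bard1 to 2.05 for Blm and every kidney interval lies above 0, while 6 of the 9 heart estimates are negative and all 9 tail estimates are positive.

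Counted over the members, all 3 KFs libraries lay above all 3 KFc libraries for 9 of 9 genes, as they did for 26.2% of all genes tested. All 3 HFs libraries lay below all 3 HFc libraries for 5 of 9, Rad51ap1, Rad54l, Brca1, Bard1 and Eme1, against 34.0% of all genes. All 3 TFs libraries lay above all 3 TFc libraries for 3 of 9, Rad54l, Brca2 and Blm, against 29.3% of all genes. The tail share is thus near what all genes gave. Exons of Rad54l, Brca2, Palb2 and Eme1 overlap exons of genes on the opposite strand, Lrrc41, Gm42529, Gm16326, and Lrrc59 with Mrpl27. The study describes its reads as stranded, and its read assignment used the strand.

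The same libraries stood high or low for most members. KFs replicate 2 was the highest KFs library for 8 of the 9 genes and the library labelled KFs replicate 3 the lowest for 7. TFs replicate 1 was the highest TFs library for all 9 genes, and HFs replicate 2 the lowest HFs library for 7. Without KFs replicate 2 the log2 fold change in KFs/KFc was lower for each of Brca1, Rad54l, Rad51ap1, Blm, Eme1, Brca2, Palb2 and Xrcc2, at 1.29, 1.00, 1.21, 1.75, 1.34, 1.22, 1.12 and 0.67 in that order.

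In culture the kidney fibroblasts stood lowest. KFc had the lowest mean of the 6 groups for 9 of 9 genes. The share of all genes with their lowest mean in KFc was not counted. Between organs a difference was called at an adjusted p under 0.05 alone. In KFc/HFc 8 genes were lower, all but Palb2, with a median log2 difference of -1.25. This compares with 15.1% of all genes lower. The differences ran from -0.87 for Blm (adjusted p = 0.0197) to -1.88 for Rad51ap1 (adjusted p = 0.00727), and Bard1, at -1.44, had the smallest adjusted p of 5.09e-05. Palb2 was at -0.17 with a 95% interval from -0.77 to 0.43. Leaving out any 1 of the 6 libraries compared lost either Blm or Xrcc2 and gave 7.

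In KFc/TFc 6 genes were lower, Rad51ap1, Brca1, Brca2, Bard1, Xrcc2 and Eme1, with a median of -0.93 over the 9, against 18.5% of all genes lower. Of these, Xrcc2 was at -1.18, Bard1 at -1.16 and Brca2 at -1.15. Rad54l was at -0.76 with an adjusted p of 0.0502, Palb2 at -0.62 (adjusted p = 0.093) and Blm at -0.60 (adjusted p = 0.0886). The count was 4 without KFc replicate 1, TFc replicate 1 or TFc replicate 3, where Rad51ap1 and Eme1 were lost each time, and 5 without KFc replicate 2, KFc replicate 3 or TFc replicate 2. All 3 KFc libraries lay below all 3 HFc libraries for 8 genes (29.3% of all genes) and below all 3 TFc libraries for 8 genes (31.1% of all genes). HFc/TFc had 0 members called by edgeR or DESeq2 and 0 at an unadjusted p under 0.05, with a median log2 difference of 0.28, while 20.9% of all genes were higher and 21.0% lower. Their 95% intervals allow differences of up to 1.40 for Rad51ap1 and 1.30 for Eme1, so equal levels are not shown.

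After transplantation, edgeR and DESeq2 called 0 members between KFs and TFs, and 1 member, Blm, had an unadjusted p under 0.05. The median log2 difference was 0.12, while 15.3% of all genes were higher and 13.8% lower in KFs/TFs. The widest interval was that of Rad51ap1, from -1.03 to 0.89, and the interval of Blm ran from 0.00366 to 1.08. Without the library labelled KFs replicate 3, Blm was higher in KFs by 0.70 (adjusted p = 0.0413).

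KFs exceeded HFs for 4 members, Blm by 0.98 (adjusted p = 0.0081), Palb2 by 0.89 (adjusted p = 0.022), Brca1 by 0.88 (adjusted p = 0.0133) and Rad54l by 0.87 (adjusted p = 0.0277), while 19.0% of all genes were higher in KFs/HFs. All 3 KFs libraries lay above all 3 HFs libraries for 5 members (19.1% of all genes), these 4 and Eme1. The count was 6 without the library labelled KFs replicate 3, which added Rad51ap1 and Xrcc2, 1 without HFs replicate 2 and 0 without KFs replicate 2. HFs lay below TFs for 1 member, Brca1, by -0.73 (adjusted p = 0.0448), while 12.7% of all genes were lower in HFs/TFs. That call was lost without HFs replicate 2 or 3 or TFs replicate 1 or 2. Without the library labelled KFs replicate 3, 3 members were lower. That library is in neither group and enters this comparison only through the filter, the scaling and the shared estimate of spread.

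Neighbours in the order of group means mostly overlapped. KFs had the highest mean for 5 genes, Rad54l, Brca1, Palb2, Blm and Eme1, HFc for Rad51ap1 and Bard1, and TFs for Brca2 and Xrcc2. The lowest group, KFc, was apart from its neighbour for 6 genes, Rad51ap1, Brca1, Brca2, Bard1, Xrcc2 and Eme1, and overlapped it for Rad54l, Palb2 and Blm. Shares over all genes were not counted for these orders, so whether such counts are unusual is not shown. Per kilobase of annotated exon, the mean over the 6 groups ran from 0.371 CPM per kb for Palb2 to 1.91 CPM per kb for Brca1. On this scale Brca2 followed Brca1 at 1.12 CPM per kb, and Rad54l stood next to Palb2 at 0.549 CPM per kb.

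Whether transplantation acted differently on the 3 organ types was tested as the difference of the log2 fold changes. The study names this pathway for genes raised only in KFs/KFc of these same libraries. The kidney differences are thus not independent evidence of a response particular to kidney fibroblasts. The kidney change exceeded the heart change for 8 of the 9 genes, against 15.5% of all genes, with a median difference of 1.86. Rad51ap1 differed by 2.65 ± 0.66 SE (adjusted p = 0.00792), Eme1 by 2.23, Rad54l by 2.15 and Brca1 by 2.11. Blm differed by 1.86, Bard1 by 1.52, Brca2 by 1.29 and Xrcc2 by 1.24. Palb2, the exception, differed by 1.06 with an adjusted p of 0.0597. Xrcc2 was lost without HFc replicate 2, HFs replicate 1 or 2, KFc replicate 1 or KFs replicate 2. The count without the library labelled KFs replicate 3 was again 8.

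The kidney change exceeded the tail change for 1 gene, Brca2, by 1.05 ± 0.25 SE (adjusted p = 0.0153), against 4.99% of all genes. The 9 differences were all positive, from 0.83 for Bard1 to 1.36 for Rad51ap1, with a median of 1.05. This count turned on single libraries. It was 7 without the library labelled KFs replicate 3, with Rad54l and Palb2 remaining short of the threshold at adjusted p of 0.0582 and 0.0512, and 5 without TFs replicate 1. Brca2 passed in all 12 fits that left out 1 of the libraries compared. The heart change was below the tail change for 2 genes, Rad54l by -1.27 (adjusted p = 0.0323) and Brca1 by -1.10 (adjusted p = 0.0338), against 12.7% of all genes. Rad54l passed in 3 of 13 fits with a library left out and Brca1 in 5 of 13. The count was 1 without HFs replicate 1 or TFs replicate 2, and 0 without HFc replicate 1 or 2, HFs replicate 2 or 3, TFs replicate 1 or any 1 of the TFc libraries. These 3 comparisons share libraries pairwise.

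Of 36 other genes of homologous recombination, 9 rose and none fell in KFs/KFc, with a median log2 fold change of 0.58 against 1.41 for the 9 members and 0.09 for all genes. Of all genes tested 14.7% rose and 7.99% fell in KFs/KFc, and 18.3% rose and 9.33% fell in HFs/HFc. In HFs/HFc 2 rose and 1 fell, with a median of -0.14, and in TFs/TFc edgeR called 0, with a median of 0.12 and 10 genes at an unadjusted p under 0.05. Without the library labelled KFs replicate 3 the kidney count was again 9 and the median 0.41, with the single-strand binding protein Rpa2 added and Rmi2, a partner of Blm, lost. The members and the lists were chosen with earlier results of these data known. The higher kidney median of the 9 members is thus not independent evidence that they stand apart within the pathway.

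Among 6 genes of end resection 3 rose in KFs/KFc, on the log2 scale the nuclease Exo1 by 1.96 (adjusted p = 0.00203), the nuclease cofactor Rbbp8 by 1.07 (adjusted p = 3.69e-06) and the nuclease and helicase Dna2 by 1.07 (adjusted p = 0.00185). Among 14 genes of strand binding and exchange 2 rose, Rad51c by 1.38 (adjusted p = 0.000458) and the motor protein Rad54b by 1.23 (adjusted p = 0.000242), near the 14.7% of all genes that rose. The median of these 14 was 0.19, and without the library labelled KFs replicate 3 it was 0.33 and 3 rose. Among 10 genes that process joined molecules 3 rose, the resolvase Gen1 by 1.64 (adjusted p = 0.000459), Rmi2 by 1.21 (adjusted p = 0.000729) and the helicase subunit Mcm8 by 1.14 (adjusted p = 0.00742). Among 6 other genes of the Brca1 complexes the helicase Brip1 rose by 1.34 (adjusted p = 1.73e-05), and the median of the 6 was 0.55, or 0.33 without that library. Without it Rmi2 stood at 0.89, under the fold limit. In heart fibroblasts Exo1 fell by 1.15 on the log2 scale (adjusted p = 0.0366), while Rad51c rose by 1.25 (adjusted p = 0.000933) and Rmi2 by 1.00 (adjusted p = 0.00253).

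Other repair and cell cycle lists are set beside the members. Over all genes tested 14.7% rose and 7.99% fell in KFs/KFc, and 9.33% fell in HFs/HFc. Of 11 Fanconi anaemia genes, whose products unlock crosslinked strands together with Brca2 and Palb2, 5 rose in KFs/KFc, with a median of 0.99. Of 13 genes of end joining, the alternative route that needs no template, 1 rose and 1 fell, with a median of 0.57. Without the library labelled KFs replicate 3 none of these 13 rose and 1 fell, with a median of 0.30, as Rif1, which holds back end resection, went from 1.45 to 0.96. That library held 366 CPM of this list, against 253 and 256 CPM in the other KFs libraries. Of 17 DNA replication genes, such as those of the Mcm helicase, 11 rose, with a median of 1.25. Of 12 mitosis genes all 12 rose, with a median of 2.01. Without the same library 6 Fanconi anaemia, 12 replication and 12 mitosis genes rose, with medians of 1.1, 1.29 and 2.24. In HFs/HFc 8 of the 17 replication genes and 5 of the 12 mitosis genes fell, with medians of -0.98 and -0.79. In TFs/TFc 1 replication gene rose and 1 fell, and 0 mitosis genes were called by edgeR (6 at an unadjusted p under 0.05). The medians were 0.30 and 0.64. The medians of both cell cycle lists thus had the sign of the members' median in each organ, and the part of the cell cycle in the members' changes was not tested.

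**Figure D3:**
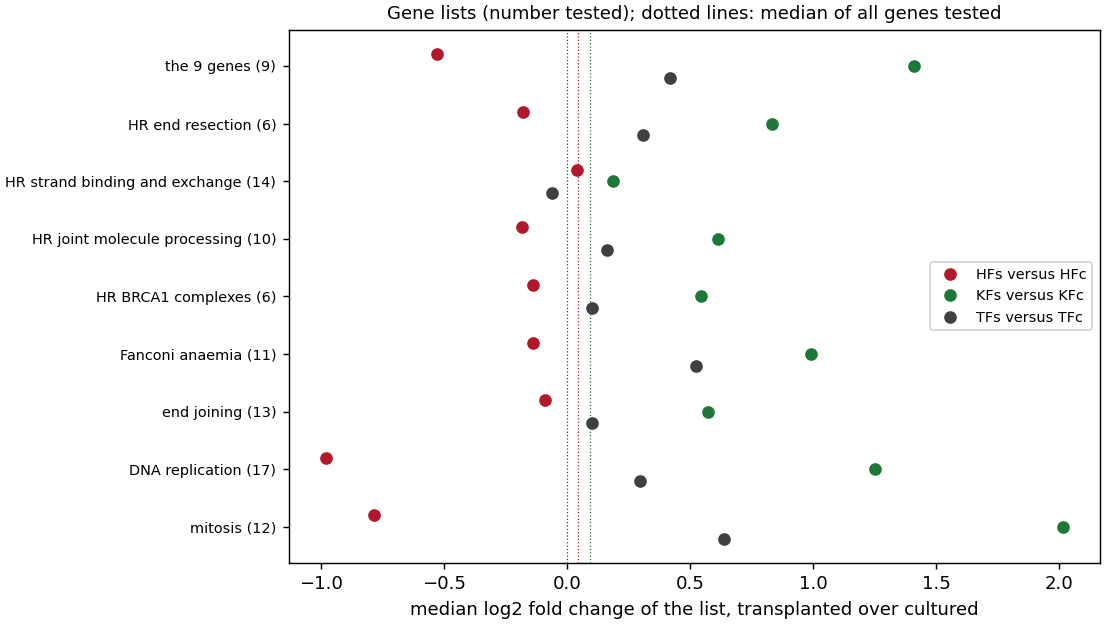
Median log2 fold change, transplanted over cultured (horizontal axis), of the 9 genes, of 4 other lists of homologous recombination (HR) and of 4 neighbouring lists, with the number of genes tested in brackets. Dotted lines are the medians over all genes. The kidney median of the 9 genes, 1.41, lies between those of the replication list, 1.25, and the mitosis list, 2.01, and the heart medians of the 9 genes and of both these lists are negative.

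The 10 other genes whose log2 CPM followed the members' mean standardised level most closely over the 18 libraries were Knl1, Top2a, Kif15, Ncapg2, Ercc6l, Kif11, Tk1, Cenpf, Ncapd2 and Sgo2a, with Pearson's r from 0.945 to 0.970. The leading gene, Knl1, a kinetochore protein, had means of 7.61 CPM in KFc, 39.3 CPM in KFs, 30.2 CPM in HFc and 21.9 CPM in HFs. Top2a, the topoisomerase of dividing cells, had 49.0 CPM in KFc and 162 CPM in KFs. Among the members themselves r ran from 0.30 to 0.96 over 36 pairs, with a median of 0.76. These values describe 18 libraries that share groups and differ in depth.

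**Figure D4:**
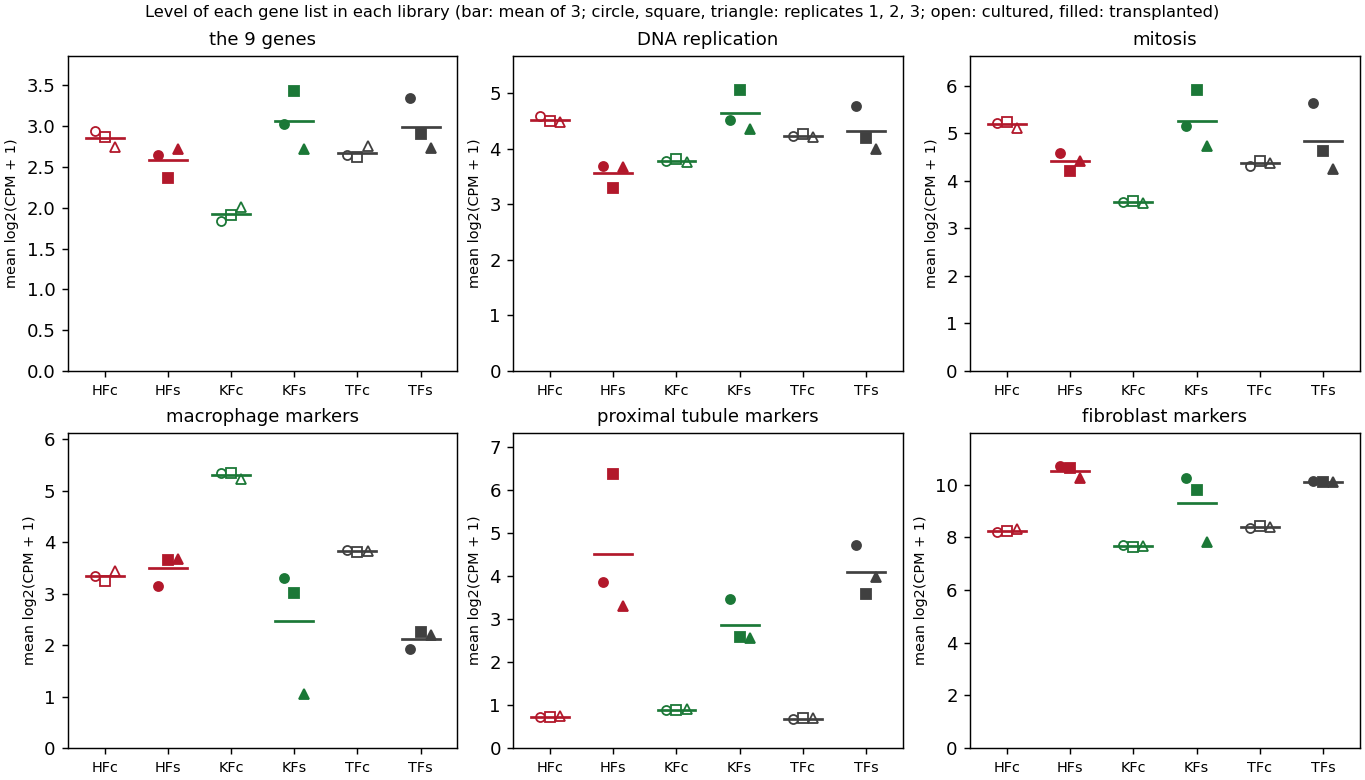
Mean log2(CPM + 1) of the 9 genes, 2 cell cycle lists and 3 lists of cell type markers (vertical axes, from 0) in the 18 libraries. Open symbols are cultured and filled symbols transplanted libraries, circle, square and triangle are replicates 1, 2 and 3, and bars are means of 3. KFs replicate 2 and TFs replicate 1, at 3.43 and 3.35, are the highest libraries of their groups for the 9 genes, and at 5.90 and 5.63 for mitosis, and KFc is the highest group for macrophage markers.

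The libraries that stood high for the members stood high for the cell cycle lists too. The mean log2(CPM + 1) of the mitosis genes was 5.90 in KFs replicate 2, where that of the members was 3.43, and 5.63 in TFs replicate 1, where that of the members was 3.35. In KFc it was 3.53 to 3.58, the lowest of any group. The replication list had another order. It was lowest in HFs, at 3.30 to 3.70, below KFc at 3.76 to 3.82, while the members stood higher in HFs, at 2.37 to 2.72, than in KFc, at 1.84 to 2.01.

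Cell type markers moved with the groups as well. The sort of the transplanted cells took TdTomato-positive, CD45-negative cells, a gate set against leukocytes and against unlabelled cells of the recipient, while the cultured controls were replated cells. The 8 fibroblast markers summed to 12300 to 16000 CPM in cultured and 17800 to 123000 CPM in transplanted libraries, lowest of the latter in the library labelled KFs replicate 3. Of these 8, 6 rose and Thy1 fell in HFs/HFc, 6 rose in KFs/KFc and 5 rose in TFs/TFc, with median log2 fold changes of 2.68, 2.07 and 1.68, the kidney median being 2.44 without that library. The 7 macrophage markers summed to 419 to 446 CPM in KFc, against 90.1 to 104 CPM in HFc and 175 to 203 CPM in TFc, and to 11.5 to 127 CPM in KFs, lowest in the library labelled replicate 3, 88.4 to 148 CPM in HFs and 33.6 to 41.7 CPM in TFs. The group with the lowest members was thus the one with the highest macrophage markers. Other libraries did not follow this order. Within KFs the library labelled replicate 3 had the lowest macrophage sum and was also the lowest for 7 of the 9 members. TFc had a higher macrophage sum than HFc, and 0 members were called between them. The 10 proximal tubule markers summed to 147 to 1350 CPM in HFs, 68.7 to 142 CPM in KFs and 146 to 386 CPM in TFs. In culture they summed to 19.9 to 20.2 CPM in HFc, 95.6 to 102 CPM in KFc and 14.2 to 16.4 CPM in TFc. The sums of KFs and KFc thus overlapped, while their mean log2(CPM + 1) did not, at 2.55 to 3.48 in KFs and 0.88 to 0.90 in KFc. At 3 counts or fewer in every library were 7 of the 10 in HFc, 7 in KFc and 5 in TFc. HFs replicate 2, the lowest HFs library for 7 members, had the highest tubule level, a mean log2(CPM + 1) of 6.38. The tail libraries went the other way. TFs replicate 1, the highest TFs library for all 9 members, had the highest tubule level of TFs, 4.73 against 3.59 and 3.98. The 7 endothelial markers summed to 43.9 to 57.6 CPM in cultured and 46.7 to 90.4 CPM in transplanted libraries. Of these 7, 6 rose in HFs/HFc, with a median log2 fold change of 3.07, 3 rose and 1 fell in KFs/KFc, with a median of 0.89, and 2 rose in TFs/TFc, with a median of 0.69. Without the library labelled KFs replicate 3 the kidney comparison had 3 higher, 0 lower and a median of 0.72. The 6 erythroid markers summed to at most 0.209 CPM in cultured and 42.5 CPM in transplanted libraries. The 5 lymphocyte markers, Cd3e and Cd79a among them, summed to at most 0.545 CPM anywhere. The part of these cells in the members' differences was not tested.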

How the data were processed

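RNA was sequenced in 18 libraries as single-end reads. The study's methods name a stranded total RNA kit for the cells taken from the kidney capsule. They do not say which kit was used for the cultured controls of this experiment. The authors trimmed the reads and estimated expected counts per gene with RSEM and Bowtie2 on GRCm38, per their methods, while the submitters' processing notes name mm9. The annotation release is not given in the sources used here. The deposited expected counts are whole numbers, and were used as counts without rounding. Of 38924 Ensembl rows, 37607 matched GENCODE M21, which gave symbols, coordinates and exon lengths. Total counts ran from 17927838 to 32245168, so 3 counts were 0.093 to 0.167 CPM.

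edgeR 4.0.16 (filterByExpr, TMM, quasi-likelihood test) was fitted to all 18 libraries with 1 mean per group in R 4.3.3, and p-values were adjusted over 16577 genes. The common biological coefficient of variation was 0.24. The 12 comparisons were each organ's transplanted against cultured cells, organs within a state, and differences between responses. The fit was also run on simulated counts with planted changes in KFs. All planted changes were above the fold limit and no library deviated from its group, so counts near that limit were not covered. DESeq2 1.42.0, other scalings and filters, a replicate block and leaving out each library were alternatives. Same-numbered libraries of an organ correlated in their deviations from group means at -0.042 to 0.045 and were not paired. No library was dropped from the values given unless stated.

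The members and gene lists were chosen with earlier results of these data known. Named beyond the members were at most 3 called genes per recombination list by size of change in KFs/KFc, and the 10 genes most like the members. Some genes of the lists were left out and are not reported here.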

Additional observations from a re-analysis of the deposited data

Results flagged for a closer look

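Responses to transplantation that differed between organs by a test of the difference are collected here, each as a difference of log2 fold changes with edgeR's quasi-likelihood test over all genes. Between kidney and heart fibroblasts 8 members differed, Rad51ap1 by 2.65, Eme1 by 2.23, Rad54l by 2.15, Brca1 by 2.11, Blm by 1.86, Bard1 by 1.52, Brca2 by 1.29 and Xrcc2 by 1.24. In all 12 fits that left out 1 of the libraries compared, 7 of these passed, and Xrcc2 passed in 7 of 12, with 0.84 (adjusted p = 0.0804) without KFs replicate 2. The share of all genes with a higher kidney than heart change was 15.5%. Between kidney and tail fibroblasts Brca2 differed by 1.05, against 4.99% of all genes, and passed in all 12 fits with a compared library left out. Between heart and tail fibroblasts Rad54l differed by -1.27 and Brca1 by -1.10, against 12.7% of all genes lower. With a library left out Rad54l passed in only 3 of 13 fits and Brca1 in only 5 of 13. The study names this pathway for genes raised only in KFs/KFc of these libraries, so the kidney differences are not independent evidence.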

How the results depend on the processing

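The count of members called in KFs/KFc stayed between 7 and 9 under every alternative run, and those in KFc/HFc and in the kidney against heart response within 1.5 times of 8. The other counts moved. With an adjusted p alone it was 2 in HFs/HFc and 1 in TFs/TFc. With a log2 fold change limit of 1 it was 0 in HFs/TFs and 0 in KFs/HFs. With only the groups compared in the fit it was 2 in HFc/TFc, 0 in HFs/TFs and 0 in KFs/HFs. HFs/TFs gave 0 with DESeq2 size factors, 0 with no filter and 5 with library size alone. The kidney against tail response gave 3 with library size alone and 4 with DESeq2, and the heart against tail response 1 with no filter. Library size alone moved the median of all genes by over 0.1 in HFc/TFc (-0.16), HFs/TFs (-0.22), KFs/HFs (0.20) and the kidney against heart response (0.11).

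With 1 library left out the counts ran from 0 to 1 in TFs/TFc and in KFs/TFs, from 0 to 3 in HFs/TFs, from 0 to 6 in KFs/HFs, from 4 to 7 in KFc/TFc (4 with the fold limit and 8 with only the groups compared), from 1 to 7 in the kidney against tail response and from 0 to 2 in the heart against tail response. The 1 in TFs/TFc came without TFc replicate 3 or TFs replicate 3, and the 1 in KFs/TFs without KFs replicate 3 or TFs replicate 1. The kidney against tail response gave 2 without KFc replicate 1.

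Under the alternatives that kept every library, 822 of 864 values of single members kept direction and side of the threshold, and 2 turned sign with library size alone, Brca2 in HFc/TFc (-0.06) and Palb2 in the heart against tail response (-0.0). With 1 library left out, 775 of 873 kept both and 19 turned sign. The latter ranged from -0.14 to 0.74 for Rad51ap1 and -0.07 to 0.20 for Bard1 in TFs/TFc, from -0.31 to 0.05 for Palb2 in KFc/HFc, from -0.27 to 0.02 for Brca2 in HFs/TFs, and in KFs/TFs from -0.60 to 0.49 for Rad51ap1, -0.24 to 0.33 for Rad54l, -0.10 to 0.50 for Brca1 and -0.23 to 0.03 for Brca2. They ranged from -0.11 to 0.18 for Brca2 and -0.07 to 0.15 for Bard1 in KFs/HFs, and from -0.14 to 0.34 for Palb2 in the heart against tail response. None of these was called. The cause of these changes was not tested.

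A replicate block, with an effect of each replicate number common to all organs, left the count of members at 8 in KFs/KFc and changed it in no comparison. Pairs within an organ were not modelled. The sources used here do not say whether same-numbered libraries share an origin. Counts over all genes moved by over 1.5 times chiefly with the threshold, from 4585 to 9353 in HFs/HFc, 3754 to 8091 in KFs/KFc and 2743 to 6433 in TFs/TFc with an adjusted p alone. With the fold limit they were 3237 of 6943 in HFc/TFc, 2703 of 6026 in KFc/TFc, 2473 of 4833 in KFc/HFc, 1722 of 3822 in HFs/TFs, 1971 of 4819 in KFs/TFs, 2096 of 5504 in KFs/HFs, and 2176 of 4347, 980 of 1835 and 1876 of 3776 in the kidney against heart, kidney against tail and heart against tail responses. With only the groups compared they were 7508 in KFc/HFc, 1137 in KFs/TFs and 883 in KFs/HFs. KFs/TFs had 3183 without TFs replicate 3, and the kidney against tail response 3619 without KFs replicate 3 and 1198 without TFc replicate 3. The members had 19 to 953 counts a library, and how far depth limits the intervals given was not tested.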
